A study of Mus musculus with 8 samples.

Results

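The MHC class II presentation genes were described in RNA sequencing data of early B lineage cells from WT and lactoferrin knockout (Lf-/-) mice. The members were chosen by name from the antigen presentation pathway: Cd74, H2-Aa, H2-Ab1, H2-Eb1, H2-DMa, H2-DMb1, H2-DMb2, H2-Oa, H2-Ob and Ciita, 10 of the 52550 genes listed for each library. Each of the 10 symbols was found once. Members and comparison lists were set with earlier results of these data known. MHC class II molecules are surface dimers of an alpha and a beta chain that present peptides to CD4+ T cells. The invariant chain, encoded by Cd74, fills the groove of new dimers and guides them to the endosome, where the DM dimer exchanges the remnant of the invariant chain for peptides and the DO dimer restrains DM. Ciita encodes the coactivator that switches these genes on, and in bone marrow class II is known to appear on B lineage cells as they mature and to be abundant on dendritic cells.

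Cells were sorted from bone marrow of C57BL/6J mice, either wild type or carrying the Lf-/- allele in all cells, with age matched littermates as controls. Neither the age nor the sex of the mice is given in the sources used here. Pre-pro-B cells were gated in the study by AA4.1, B220 and further markers, and pro-B cells as B220+ and CD43+ without IgM. Of the 7 libraries, 4 came from pre-pro-B cells, 2 of each genotype, and 3 from pro-B cells, 1 WT and 2 Lf-/-. WT pro-B replicate 2 is labelled but had no processed values among the data used here, so it was not analysed. The labels number the mice of each genotype 1 and 2 in both stages, so libraries of different stages may share mice. The main fits took the libraries as independent. The study's methods give 3 mice per group for the sequencing. Nothing else says that replicates came from separate animals, so p-values measure the spread between these samples, which may be technical. Levels are FPKM, fragments scaled by transcript length and library size. In 6 libraries the steps of the values corresponded to between 10800000 and 15300000 fragments, so 1 FPKM in a transcript of 1 kb rests on 10.8 to 15.3 fragments. For Lf-/- pre-pro-B replicate 2 no depth could be read. That library stood apart, with 12172 genes above 0 against 19477 to 20250 in the others, and each comparison of the members is also given without it.

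Ltf, the gene for lactoferrin, was at 2143 and 2731 FPKM for the WT pre-pro-B pair, 88.2 and 149 in the Lf-/- pre-pro-B pair, 2650.3 in the WT pro-B library, and 168 and 96.0 in the Lf-/- pro-B pair. The 4 Lf-/- values were thus all lower than the 3 WT values, as labelled. The labelled cell type was less clear. Genes of neutrophils and their precursors (15 genes, led by S100a8) made up 38.7% and 38.7% of summed FPKM for the WT pre-pro-B pair, 37.6% and 25.2% in the Lf-/- pre-pro-B pair, 52.8% in the WT pro-B library, and 34.5% and 39.3% in the Lf-/- pro-B pair. Early B lineage genes (13 genes, led by Cd79a) made up 0.0645% and 0.0610%, 0.339% and 0.313%, 0.0231%, and 0.340% and 0.194% in the same order. The libraries are therefore called by their sort labels only.

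Cd74, the invariant chain, had the highest level among the members in all 7 libraries. It was at 967 and 1236 FPKM for the WT pre-pro-B pair, 3989 and 2672 in the Lf-/- pre-pro-B pair, 820.5 in the WT pro-B library, and 3875 and 3839 in the Lf-/- pro-B pair. All 4 Lf-/- values were above all 3 WT values. The difference on the log2(FPKM + 1) scale, averaged over both stages, was 1.90 ± 0.33 (SE, 3 WT and 4 Lf-/- libraries), and it did not pass the threshold of adjusted p under 0.05 (limma, adjusted p = 0.196). In bulk RNA, fewer cells of a type and less RNA per cell cannot be told apart.

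The classical chains followed. H2-Ab1, the beta chain of the I-A dimer, was second in each library, at 224 and 239 FPKM for the WT pre-pro-B pair, 565 and 815 in the Lf-/- pre-pro-B pair, 163 in the WT pro-B library, and 911 and 1059.9 in the Lf-/- pro-B pair. H2-Aa, its alpha chain partner, was at 112 and 145, 310 and 457, 98.5, and 470 and 556 FPKM in the same order. H2-Eb1, a beta chain of the I-E type, was at 122 and 156, 297 and 451, 83.8, and 414 and 485 FPKM. In these 3 genes the lowest Lf-/- library was above the highest WT library, and the Lf-/- pro-B libraries were highest for H2-Ab1 and H2-Aa. The log2 differences over both stages were 2.06 ± 0.30 for H2-Ab1, 1.96 ± 0.30 for H2-Aa and 1.90 ± 0.31 for H2-Eb1 (SE), with limma adjusted p of 0.137, 0.149 and 0.158. The order of H2-Aa and H2-Eb1 was not fixed: H2-Eb1 was the higher in both WT pre-pro-B libraries and H2-Aa in the other 5.

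Of the other class II genes, H2-Eb2 was at 0.0414 and 0.0383 FPKM for the WT pre-pro-B pair, 0.453 and 0 in the Lf-/- pre-pro-B pair, 0.0801 in the WT pro-B library, and 1.15 and 0.707 in the Lf-/- pro-B pair. H2-Ea-ps, the alpha chain gene of I-E that is not functional in C57BL/6 mice, was listed at 0 in 6 libraries and at 0.0982 FPKM in replicate 1 of Lf-/- pre-pro-B. Neither reached the filter of 1 FPKM in 2 libraries. H2-Eb1 was therefore measured at levels near those of H2-Aa without its alpha chain partner.

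H2-DMa, the alpha chain of the peptide exchange factor DM, was at 44.9 and 42.3 FPKM for the WT pre-pro-B pair, 56.6 and 244 in the Lf-/- pre-pro-B pair, 31.0 in the WT pro-B library, and 107 and 121 in the Lf-/- pro-B pair. Its Lf-/- pre-pro-B replicates lay further apart than the WT and Lf-/- groups of pro-B, and its log2 difference over both stages was 1.63 ± 0.51 (SE; limma adjusted p = 0.622), or 1.11 without Lf-/- pre-pro-B replicate 2. H2-DMb2, one of the DM beta chain genes, was at 19.6 and 19.7 FPKM, 114 and 63.7, 29.5, and 172 and 177 in the same order of groups. H2-DMb1, the other, was at 23.2 and 18.7, 36.3 and 38.5, 18.0, and 45.2 and 65.4 FPKM. Their log2 differences were 2.29 ± 0.31 and 1.18 ± 0.29 (SE), with limma adjusted p of 0.129 and 0.453. The 2 beta chain genes are close copies whose reads the counting could split, so their separate levels are uncertain.

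The DO genes had lower levels. H2-Oa, the DO alpha chain, was at 5.83 and 5.58 FPKM for the WT pre-pro-B pair, 13.4 and 18.6 in the Lf-/- pre-pro-B pair, 6.44 in the WT pro-B library, and 31.7 and 33.3 in the Lf-/- pro-B pair. H2-Ob, the DO beta chain, was at 3.56 and 3.01, 10.4 and 0.732, 2.94, and 18.6 and 15.8 FPKM. H2-Ob was the single member whose genotypes overlapped, through Lf-/- pre-pro-B replicate 2, which was below every WT library while the other 3 Lf-/- libraries were above. The log2 difference over both stages was 1.75 ± 0.29 for H2-Oa (SE; limma adjusted p = 0.174) and 1.13 ± 0.64 for H2-Ob (SE; limma adjusted p = 0.729), and the latter was 1.81 without that library and 0.45 without replicate 1 of the same group.

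Ciita, the class II transactivator, was lowest of the members in every library but Lf-/- pre-pro-B replicate 2, where H2-Ob was lower. Its level was 1.44 and 2.13 FPKM for the WT pre-pro-B pair and 1.38 in the WT pro-B library. It was at 4.48 and 11.2 FPKM in the Lf-/- pre-pro-B pair and 9.09 and 10.3 in the Lf-/- pro-B pair, again without overlap between genotypes. Its log2 difference was 1.87 ± 0.39 over both stages (SE; limma adjusted p = 0.328). At a level near 1 FPKM the added pseudocount of 1 understates a difference.

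**Figure D1:**
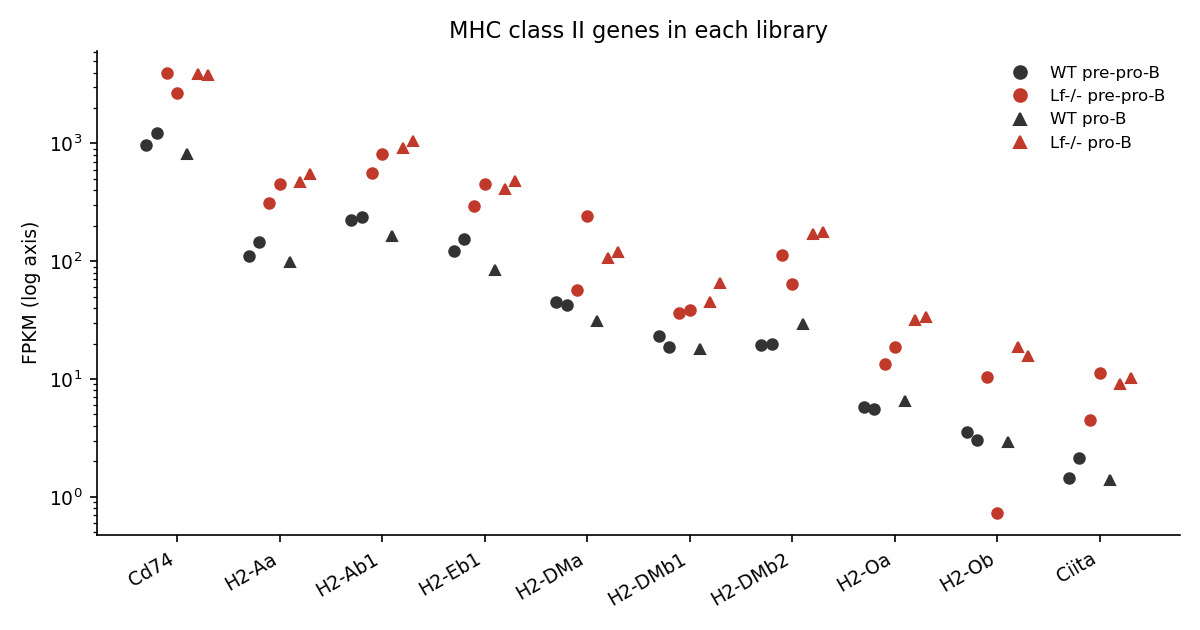
FPKM of the 10 MHC class II genes (log axis), 1 point for each of the 7 libraries, with WT in black and Lf-/- in red, circles for pre-pro-B and triangles for pro-B. The red points lie above the black points for 9 genes, and 1 red point of H2-Ob, at 0.732 FPKM, lies below them.

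Promoters are shown because the members lay apart by genotype in the same direction and class II promoters are known to share an X box and a Y box upstream of the start. The RefSeq promoter table (GRCm38.p6, 250 bases before to 50 after the start) held 8 promoters of 7 members, and Cd74, H2-Ab1 and Ciita had no entry. Capitals mark matches on either strand to CTGATTGG (Y box), to CCAAT (its inner part, read on the other strand), to AGCAAC (core of the X box) and to TGACGTCA (the cyclic AMP response element that X2 resembles). These letters were chosen after the sequences were seen.
H2-Aa, chr17:34287774-34288073, reverse strand: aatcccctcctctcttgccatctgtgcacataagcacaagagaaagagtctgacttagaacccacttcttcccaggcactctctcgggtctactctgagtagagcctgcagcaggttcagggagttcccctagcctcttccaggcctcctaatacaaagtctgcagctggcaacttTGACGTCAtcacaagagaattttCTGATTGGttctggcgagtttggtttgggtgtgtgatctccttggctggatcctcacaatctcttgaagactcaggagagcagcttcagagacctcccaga
H2-Eb1, chr17:34305617-34305916, forward strand: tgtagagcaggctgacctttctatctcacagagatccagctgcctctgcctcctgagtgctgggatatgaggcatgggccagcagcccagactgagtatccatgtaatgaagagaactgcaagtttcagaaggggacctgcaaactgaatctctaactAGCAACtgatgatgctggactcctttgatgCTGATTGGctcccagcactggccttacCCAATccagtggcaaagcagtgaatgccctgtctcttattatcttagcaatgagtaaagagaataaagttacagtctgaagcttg
H2-Oa, chr17:34092129-34092428, forward strand: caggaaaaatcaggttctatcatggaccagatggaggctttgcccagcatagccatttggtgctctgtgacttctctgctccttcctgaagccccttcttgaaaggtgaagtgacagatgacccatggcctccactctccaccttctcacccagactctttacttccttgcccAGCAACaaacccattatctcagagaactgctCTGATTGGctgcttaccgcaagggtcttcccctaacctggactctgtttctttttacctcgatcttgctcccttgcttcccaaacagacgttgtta
H2-Ob, chr17:34238655-34238954, forward strand: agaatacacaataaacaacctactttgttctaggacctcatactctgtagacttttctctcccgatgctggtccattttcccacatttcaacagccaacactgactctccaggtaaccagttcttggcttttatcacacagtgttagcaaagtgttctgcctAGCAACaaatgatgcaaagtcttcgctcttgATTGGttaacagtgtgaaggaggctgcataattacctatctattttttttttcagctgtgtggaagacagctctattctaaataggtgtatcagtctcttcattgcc
CCAAT was found in 7 of the 8 promoters of members, the other being 1 of the H2-DMa promoters, and in 37.4% of all 32851 promoters in the table. CTGATTGG, whose last bases are CCAAT on the opposite strand, so that the matches overlap, was found in H2-Aa, H2-Eb1 and H2-Oa and in 4.10% of all promoters. AGCAAC was found in H2-Eb1, H2-Oa and H2-Ob and in 14.8% of all, and TGACGTCA in H2-Aa and in 1.79% of all. A match is a description of the letters, and the members without one were not shown to lack a binding site.

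Each stage was then taken on its own. In pre-pro-B cells (2 WT and 2 Lf-/- libraries) all 10 members had a positive log2 difference, from 0.06 for H2-Ob to 2.06 for H2-DMb2, with a median of 1.48 against 0.03 over the 9720 genes tested. Of those genes 52.0% were positive. None of the 10 members passed adjusted p under 0.05 with limma, as was so for 0% of all genes tested, and the lowest adjusted p among them was 0.941. At an unadjusted p under 0.05, 7 members were higher in Lf-/-, against 2% of genes tested (194 genes). H2-Ob, nearest to 0, was negative, at -0.02, when libraries were set to the same sum of all genes but the neutrophil list, and at -0.19 with a pseudocount of 0.1. The counts rested on single libraries. Without Lf-/- pre-pro-B replicate 1, the remaining Lf-/- library was assumed to vary like the WT pair. The median of the members was then 1.67, against 0.23 over all genes, and H2-Ob was lower in Lf-/- (log2 difference -1.30). When Lf-/- pre-pro-B replicate 2 was left out, 0 genes passed, 8 members and 371 of 9328 genes were higher at an unadjusted p under 0.05, and H2-DMa was at 0.37, Ciita at 0.99 and H2-Ob at 1.42. Without WT replicate 1 or 2, 16 and 24 genes passed with 0 members among them.

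In pro-B cells (1 WT and 2 Lf-/- libraries, the WT library assumed to vary like the other groups) the members were again higher in Lf-/-, with log2 differences from 1.54 for H2-DMb1 to 2.58 for H2-Ab1. H2-Ab1 differed by 2.58 ± 0.46, H2-DMb2 by 2.52 ± 0.49 and H2-Eb1 by 2.41 ± 0.47 (SE). The median of the 10 members was 2.22, and the median of all 10793 genes tested was itself 0.48, with 87.0% of them positive. With median-ratio scaling, which brought the median of all genes to 0.01, the members' median was 1.69, and with quantile normalization it was 1.85. None of the 10 passed the limma test (0% of all genes, lowest adjusted p among the members 0.720), and 8 were higher at an unadjusted p under 0.05, against 4.18% of genes tested (451 genes). H2-DMa and H2-Ob were the 2 that did not reach it, with 95% intervals from -0.03 to 3.72 and from -0.15 to 4.56. All 10 reached it when a Lf-/- pre-pro-B library was left out of the pooled spread, beside 2262 of 10581 genes without replicate 1 and 2244 of 10529 without replicate 2, and 0 members passed in either.

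Over both stages the members' median was 1.88, against 0.25 for all genes, and with median-ratio scaling it was 1.49 against -0.05. Of all genes tested 71.3% had a positive difference, or 44.8% with median-ratio scaling. All 10 members had positive differences under each of the 4 other scalings. With limma 0 of 10 members and 3 of 10793 genes (0.0278%) passed, namely Ltf, lower in Lf-/-, and the processed pseudogenes Gm13841 and Gm8210, which were higher and are named because their count is small. At an unadjusted p under 0.05, 9 members were higher, all but H2-Ob, against 5.74% of genes tested (620 genes). The members' median was 2.07 without Lf-/- pre-pro-B replicate 1 and 1.78 without Lf-/- pre-pro-B replicate 2, against 0.31 and 0.20 over all genes. None of the 3 genes passed with a pseudocount of 0.1. No gene passed without WT pre-pro-B replicate 1, WT pre-pro-B replicate 2, Lf-/- pro-B replicate 1 or Lf-/- pro-B replicate 2.

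**Figure D2:**
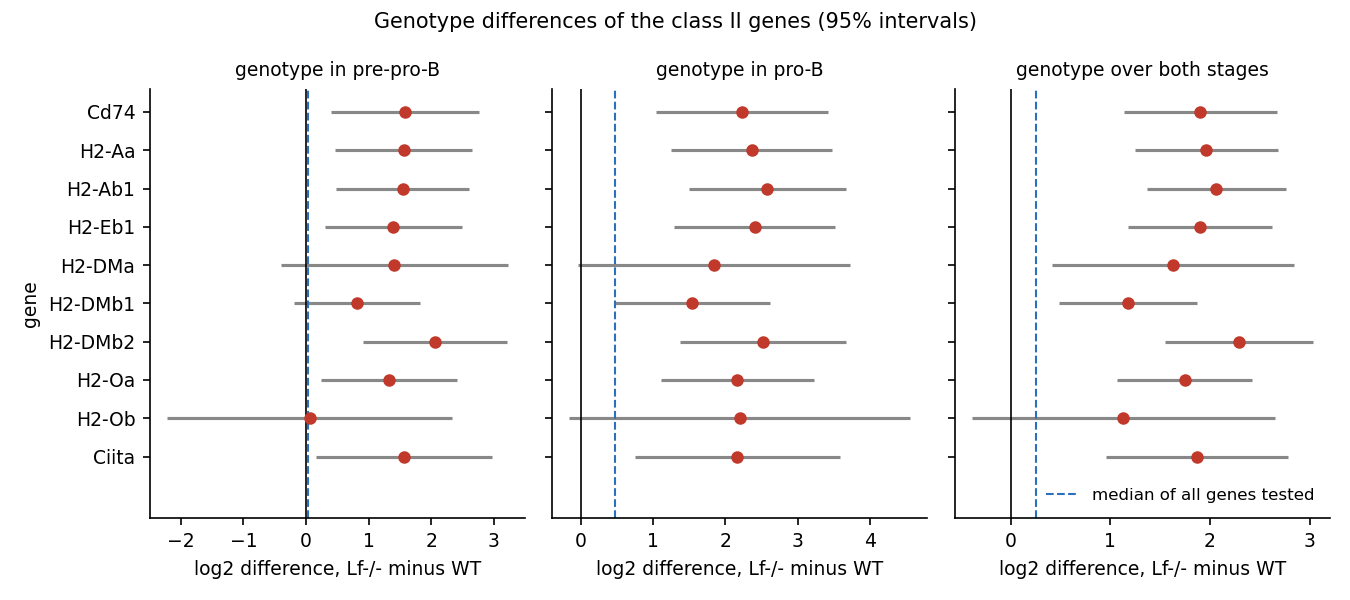
Log2 differences (Lf-/- minus WT, on log2(FPKM + 1)) of the 10 genes in pre-pro-B, in pro-B and over both stages, with 95% intervals, and the median of all genes tested as a dashed line. The points lie to the right of the dashed line in all 3 panels, and the interval of H2-Ob reaches below 0 in each.

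As a description without a test, 9 of 10 members had every Lf-/- value above every WT value, which was so for 9.87% of the 10793 genes tested (1065 genes). With median-ratio scaling and quantile normalization 9 members and 546 and 585 genes did so (5.06% and 5.42% of genes tested). Without Lf-/- pre-pro-B replicate 2 all 10 members did, H2-Ob included, against 16.3% of genes tested (1717 genes). The count of genes was 2007 (18.9% of those tested) without WT pre-pro-B replicate 1 and 2322 (21.9%) without Lf-/- pre-pro-B replicate 1, with 9 members in each.

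Whether the genotype difference itself differed between stages was tested as an interaction. All 10 members had a larger difference in pro-B than in pre-pro-B, with a median log2 value of 0.77, and the median over all genes was 0.45, with 77.1% of them positive. These medians were 0.31 and 0.07 with median-ratio scaling, and 0.40 and -0.02 with quantile normalization. H2-Ab1 differed by 1.03 ± 0.59 and H2-Ob by 2.14 ± 1.29 (SE), and H2-Ob was at 0.78 without Lf-/- pre-pro-B replicate 2, where its level was 0.732 FPKM. No member and 0% of all genes passed with limma (lowest adjusted p among members 0.990), and at an unadjusted p under 0.05 there were 0 members and 2.53% of genes in the positive direction. With median-ratio scaling H2-DMa and H2-DMb2 changed sign, to -0.03 and -0.01, and with quantile normalization H2-DMa did, to -0.06. With Lf-/- pre-pro-B replicate 1 left out, the median of the members was 0.70, against 0.32 over all genes. With replicate 2 left out 0 genes passed, the median of the members was 1.08, and 5 members and 1545 of 10529 genes were positive at an unadjusted p under 0.05.

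Between the stages, averaged over genotypes, the members' log2 differences (pro-B minus pre-pro-B) ran from -0.27 for H2-DMa to 0.95 for H2-Ob, with a median of 0.06 against -0.07 over all genes. The median of the members was 0.19 with median-ratio scaling (all genes 0.05), 0.35 with quantile normalization (all genes -0.01) and 0.26 with the same sum without neutrophil genes (all genes 0.10). Both ends moved without Lf-/- pre-pro-B replicate 2, H2-DMa to 0.26 and H2-Ob to 0.27, and the median was then 0.22. None of the members and 0% of all genes passed with limma, and 1 member, H2-DMb2 (0.79 ± 0.31, SE), was higher at an unadjusted p under 0.05, against 0.982% of genes. Leaving out Lf-/- pre-pro-B replicate 1, the median of the members was -0.02, against -0.13 over all genes.

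Ratios between genes within a library do not depend on a factor that multiplies the whole library. H2-Aa to H2-Ab1 was between 0.498 and 0.606 in all 7 libraries, with the 4 Lf-/- values inside the WT range. H2-Eb1 to H2-Ab1 was between 0.455 and 0.653. Cd74 to H2-Ab1 was 4.32 and 5.17 in the WT pre-pro-B pair, 7.07 and 3.28 in the Lf-/- pre-pro-B pair, 5.02 in the WT pro-B library, and 4.25 and 3.62 in the Lf-/- pro-B pair, so that the Lf-/- pre-pro-B replicates lay on either side of all WT values. The chains of the I-A dimer thus kept nearly the same proportion while their levels differed several-fold between libraries.

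H2-DMb2 to H2-DMb1 was 0.846 and 1.05 in the WT pre-pro-B pair, 3.14 and 1.65 in the Lf-/- pre-pro-B pair, 1.64 in the WT pro-B library, and 3.79 and 2.71 in the Lf-/- pro-B pair. The Lf-/- libraries were all above the WT libraries, by little between 1.65 and 1.64. H2-DMa to the sum of its beta chain genes was 1.05 and 1.10, 0.377 and 2.39, 0.652, and 0.494 and 0.498 in the same order, and Lf-/- pre-pro-B replicates were the lowest and the highest. The DM sum to the DO sum was 9.35 and 9.41, 8.69 and 17.9, 8.37, and 6.44 and 7.41. Without Lf-/- pre-pro-B replicate 2, no DM to DO ratio was above 9.41.

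**Figure D3:**
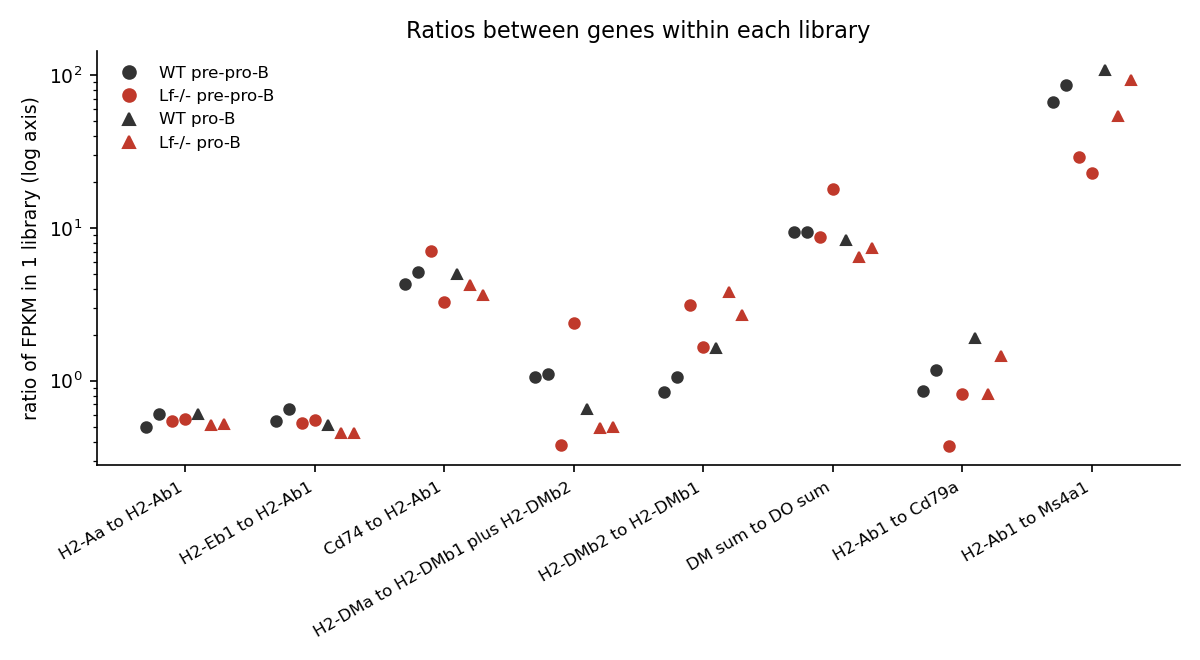
Ratios of FPKM between genes of the same library (log axis) for 8 pairs of genes or sums, 1 point for each of the 7 libraries, with colours and shapes as in the plot of FPKM by library. H2-Aa to H2-Ab1 stays between 0.498 and 0.606, and the points of H2-DMa to its beta chains spread from 0.377 to 2.39.

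Genes that mark B lineage cells differed in the same direction as the members. The early B list summed to 515 and 473 FPKM for the WT pre-pro-B pair, 2825 and 2172 in the Lf-/- pre-pro-B pair, 193 in the WT pro-B library, and 2500.1 and 1420.2 in the Lf-/- pro-B pair. All 12 of its 13 genes that were tested had a positive log2 difference over both stages, under each scaling, with a median of 2.09, and 0 passed. Cd79a (2.89) and Cd79b (2.84), the signalling chains of the B cell receptor, and Vpreb2 (2.35) were among the largest, with limma adjusted p of 0.0838, 0.0838 and 0.645. Rag1 was listed at 0 in the WT pro-B library and Rag2 at 0 in Lf-/- pre-pro-B replicate 2. The mature B list, led by Fcmr, summed to 25.5 and 18.6, 129.5 and 315, 16.4, and 207 and 175 FPKM in the same order, with a median difference of 2.14 in 6 tested genes of 7, all positive under each scaling. Ighd (3.42), Fcmr (3.34), Ms4a1 (2.66) and Cd22 (1.62) were largest. Of both lists Cd79a, Cd79b, Fcmr and Ms4a1 passed with a filter of 1 FPKM in every library. The part of these cells in the class II values was not tested.

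H2-Ab1 was set against B lineage genes within a library, and the outcome depended on the gene. H2-Ab1 to Cd79a was 0.858 and 1.18 in the WT pre-pro-B pair, 0.372 and 0.821 in the Lf-/- pre-pro-B pair, 1.90 in the WT pro-B library, and 0.824 and 1.45 in the Lf-/- pro-B pair. H2-Ab1 to Ms4a1, which encodes CD20, was 66.5 and 86.0, 29.3 and 22.9, 108.5, and 53.8 and 92.1. For both ratios every Lf-/- value was below every WT value of the same stage, while across stages the genotypes overlapped; Cd79a and Ms4a1 have larger genotype differences than H2-Ab1 (2.89 and 2.66 against 2.06). With Pax5 and Il7r, added after the values were seen, both Lf-/- values of pro-B cells were above the WT value, and with Pax5 the genotypes overlapped in pre-pro-B cells. H2-Ab1 to Pax5 was 113.5 and 527.4, 102.5 and 281, 224, and 247 and 649.8 in the same order. H2-Ab1 to Il7r was 99.6 and 106, 55.4 and 38.4, 110.4, and 113 and 245.

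Markers of other cells that present antigen were uneven. The plasmacytoid dendritic list, led by Cox6a2, summed to 60.6 and 78.0 FPKM for the WT pre-pro-B pair, 66.3 and 429.6 in the Lf-/- pre-pro-B pair, 91.2 in the WT pro-B library, and 233 and 389 in the Lf-/- pro-B pair. Its median difference was 1.18 in 5 tested genes, and 0.49 without Lf-/- pre-pro-B replicate 2. Bst2 (1.96), Cox6a2 (1.60), Siglech (1.18) and Pacsin1 (0.98) were positive, and the other tested gene, Klk1, was at -0.64. Without Lf-/- pre-pro-B replicate 2, where Klk1 was listed at 0 FPKM, Klk1 was near 0 (-0.00968) and Siglech at 0.20. The conventional dendritic list summed to 10.9 and 20.5, 7.65 and 77.2, 7.45, and 25.3 and 37.55 FPKM, led by Cd209a or Flt3, with a median of 1.20 in 3 tested genes of 8, or 0.48 without Lf-/- pre-pro-B replicate 2. Cd209a (1.33), Flt3 (1.20) and Clec10a (0.76) were the 3. Its other genes, Zbtb46, Itgax, Clec9a, Xcr1 and Batf3, were under 1 FPKM in all libraries and listed at 0 in Lf-/- pre-pro-B replicate 2. Both dendritic sums were above all WT values in 3 Lf-/- libraries and within the WT range in Lf-/- pre-pro-B replicate 1. In that library Cd74 was at its highest, 3989 FPKM, while H2-Aa, H2-Ab1, H2-Eb1, H2-DMa, H2-DMb1, H2-Oa and Ciita were at their lowest among the 4 Lf-/- libraries. The part of dendritic cells in the class II values was not tested.

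The remaining lists had lower medians than the members, and the difference between lists was not tested. Of all genes tested 71.3% were positive over both stages. The monocyte and macrophage list, led by Ly6c2, had 3 of 9 genes positive with a median of -0.33, or 1 of 9 and -0.64 with median-ratio scaling. C1qa (-0.83), Ly6c2 (-0.75), C1qb (-0.62) and C1qc (-0.57) differed most. The neutrophil list had 4 of 15 positive with a median of -0.52, or 2 of 15 and -0.93 with median-ratio scaling. Ltf (-4.38), Elane (-1.53), Prtn3 (-1.28) and Mpo (-1.22) differed most. The T and NK list had 5 of 6 tested genes positive with a median of 0.64, or 0.39 with median-ratio scaling. Without Lf-/- pre-pro-B replicate 2, 4 of 6 were positive and the median was 0.36. Nkg7 was at -1.01, Klrb1c at 0.83, Cd3d at 0.76 (-0.12 without that library) and Cd3e at 0.71. Klrb1c and Cd3e were under 1 FPKM in every WT library, so they reached the filter through Lf-/- libraries alone. The plasma cell list had a median of 0.78, with Mzb1 (1.495), Sdc1 (1.17), Xbp1 (0.40) and Jchain (0.38) all positive. With median-ratio scaling its median was 0.47 and 2 of 4 were positive, Xbp1 being at -0.00 and Jchain at -0.03. The genes of the sort gates had a median of 0.66, or 0.29 with 5 of 6 positive under median-ratio scaling. Cd93 (0.87), which encodes AA4.1, Cd24a (0.69) and Ptprc (0.62), which encodes B220, were among the largest. Apart from Ltf, 0 genes of these lists passed.

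Among factors that act on class II promoters, the 7 genes of the enhanceosome, which brings Ciita to the X and Y boxes, were taken first. Rfx5 was under 1 FPKM in all libraries. The 5 tested genes had a median of 0.58, or 0.18 with quantile normalization and 0.34 without Lf-/- pre-pro-B replicate 2. Rfxap (0.69), Creb1 (0.66), Nfyb (0.58) and Nfyc (0.32) were largest. Rfxap was at 0.33 to 1.05 with 1 library left out. With median-ratio scaling 3 of 5 were positive, Nfyc being at -0.04. Of the 6 tested factors that act on the Ciita gene all were positive, or 4 with median-ratio scaling, with a median of 1.19. Irf4 was at 1.83 and 0.422 FPKM for the WT pre-pro-B pair, 8.38 and 7.29 in the Lf-/- pre-pro-B pair, 0.926 in the WT pro-B library, and 6.69 and 2.12 in the Lf-/- pro-B pair. Its difference was 1.74, followed by Irf8 (1.24), Tcf3 (1.21) and Irf1 (1.17), and none passed.

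Genes that act with class II in the endosome and at the surface gave smaller or less even differences. The 6 endosomal processing genes had a median of 0.67, with Ctss (1.26), the protease that trims the invariant chain, Ifi30 (0.95), Lgmn (0.75) and Ctsl (0.58) largest. All 6 were positive, or 4 with median-ratio scaling. Their median was 0.31 with that scaling and 0.30 with quantile normalization. Ctss was at 128 and 125 FPKM for the WT pre-pro-B pair, 128 and 519 in the Lf-/- pre-pro-B pair, 60.1 in the WT pro-B library, and 168 and 174 in the Lf-/- pro-B pair, so that 1 library was far above the others. Its difference was 0.75 without that library. In the class II turnover list Cd83, which protects class II from ubiquitination, differed by 1.76 and March1, a ligase that marks class II for degradation, by 0.73. March1 was at 6.15 FPKM in replicate 2 of Lf-/- pre-pro-B and at 0.455 to 1.38 in the other libraries. The 4 costimulation genes had a median of 0.28, with Cd40 at 1.74 (1.145 without Lf-/- pre-pro-B replicate 2, where it was at 19.2 FPKM), Icosl at 0.38, Cd80 at -0.35 and Cd86 at 0.18 (-0.00 with median-ratio scaling). The class I presentation list had 8 of 9 tested genes positive, beside 71.3% of all genes, with a median of 0.41. With median-ratio scaling 6 of 9 were positive and the median was 0.05. Psmb8 (0.71), Psmb10 (0.67), H2-D1 (0.61) and H2-K1 (0.53) were largest. No gene of these lists passed the limma test.

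**Figure D4:**
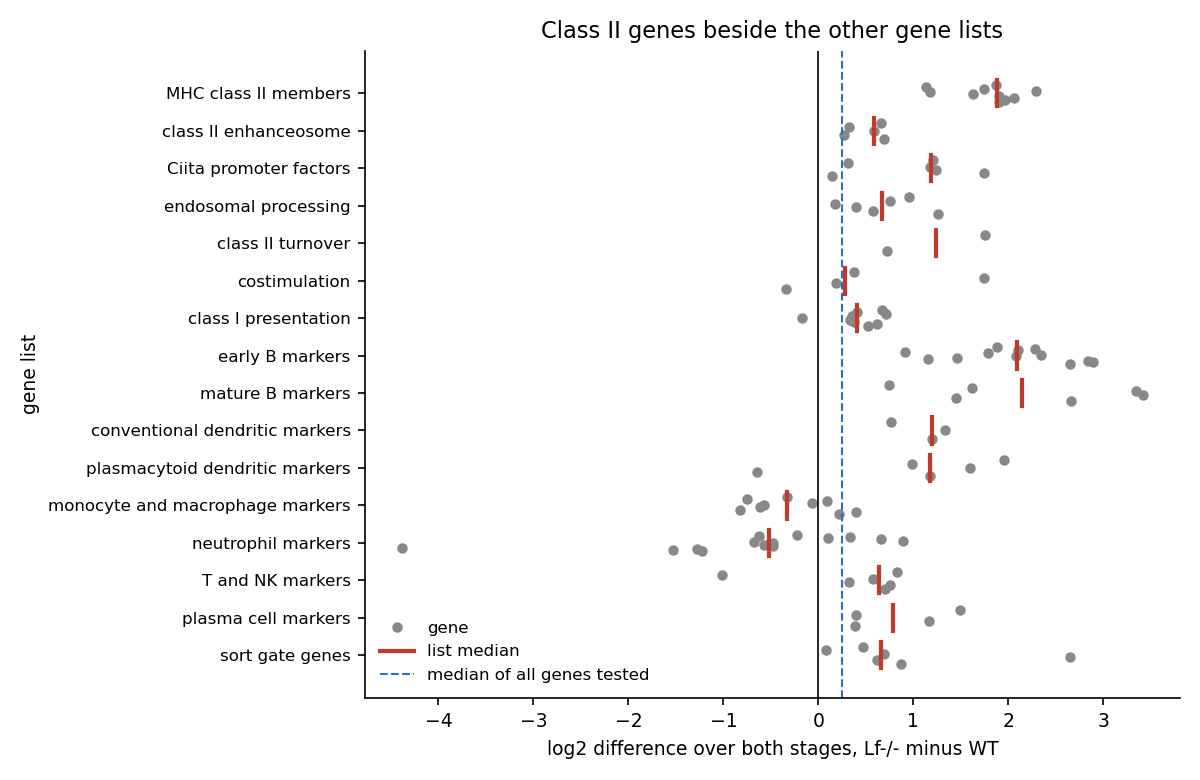
Log2 differences over both stages (Lf-/- minus WT) of the tested genes of each list as grey points, list medians as red bars and the median of all genes tested as a dashed line. The class II genes (median 1.88) and the early and mature B lists (2.09 and 2.14) lie furthest to the right.

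Most members lie together on a chromosome, interleaved with genes of other functions. Of the members, 8 lie on chromosome 17 of GRCm38, from H2-Oa (chr17:34092340-34095234) to H2-Eb1 (chr17:34305867-34316674), and Ciita lies on chromosome 16 (chr16:10480059-10528418). Between the start of H2-Oa and the end of H2-Ea-ps, 252.3 kb in the GENCODE M21 annotation, 13 of 19 genes were tested, 8 members and 5 others. The others, Brd2, Psmb9, Tap1, Psmb8 and Tap2, had log2 differences over both stages from -0.17 (Tap2) to 0.71 (Psmb8), while the 8 members had 1.13 to 2.29. Tap2 was at 0.67 without Lf-/- pre-pro-B replicate 2, where it was listed at 0 FPKM. Psmb9, Tap1, Psmb8 and Tap2, which serve class I presentation, lie between H2-DMb1 and H2-Ob. The difference between members and neighbours was not tested.

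**Figure D5:**
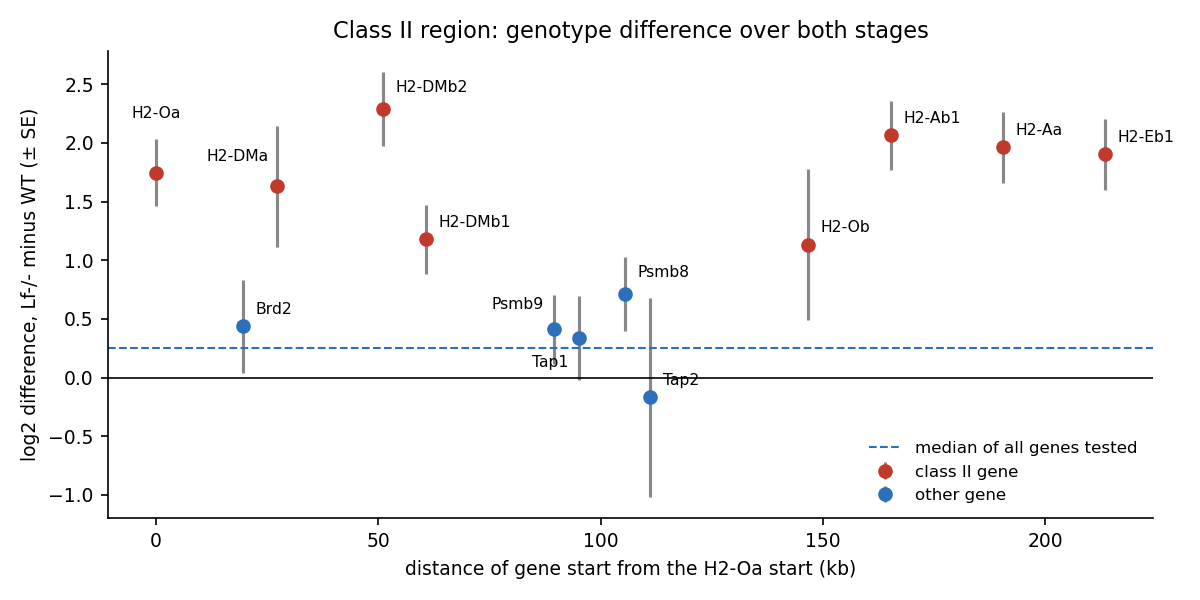
Log2 difference over both stages (Lf-/- minus WT, with SE) of the 13 tested genes of the class II region, by distance of the gene start from the H2-Oa start in kb, with class II genes in red and other genes in blue. The 5 blue points lie between -0.17 and 0.71, below all 8 red points.

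The genes most like the members were found by the root mean square distance, over the 7 libraries, between a gene's centred log2(FPKM + 1) profile and the mean centred profile of H2-Aa, H2-Ab1, H2-Eb1 and Cd74. Ciita and H2-Oa ranked 6 and 9 of 10793 genes (distances 0.252 and 0.330), while H2-DMb1 ranked 35, H2-DMa 143, H2-DMb2 188 and H2-Ob 8319. Outside the members the nearest were Gm6344 (0.216), Gpr18 (0.252), Ypel3 (0.326), Cd180 (0.332), Tspan13 (0.333), Tma7-ps (0.336), Mndal (0.340), Slamf6 (0.347), Gm11868 (0.352) and Rnase6 (0.355). Gm6344, Tma7-ps and Gm11868 are annotated as processed pseudogenes. Cd180, which encodes a surface receptor of B cells, was at 1.20 and 1.04 FPKM for the WT pre-pro-B pair, 4.60 and 7.20 in the Lf-/- pre-pro-B pair, 1.11 in the WT pro-B library, and 5.17 and 4.76 in the Lf-/- pro-B pair. Gpr18 was at 7.60 and 5.57, 19.5 and 24.8, 5.60, and 36.9 and 31.6 FPKM in the same order.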

How the data were processed

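Per the labels, RNA of sorted pre-pro-B and pro-B cells was sequenced, and the authors' values were available as 1 table for each of 7 libraries. The submitters' processing notes name TopHat, Cufflinks, HTSeq, DESeq and GRCm38, with no versions. The deposited values were read as FPKM from the values themselves, since the file headers give no unit. Genes were matched by identifier to GENCODE M21 (52403 of 52550), which also recovered 27 symbols stored as dates. Values were taken as log2(FPKM + 1), and genes with at least 1 FPKM in 2 libraries of the fit were tested with limma 3.58.1 (R 4.3.3, trend, two-sided, Benjamini-Hochberg over all genes tested). All 10 members passed this filter. The fit was tried on simulated data in which a gene had the same spread in all libraries, unlike the replicate spreads seen here. Pre-pro-B was fitted on 4 libraries, and the other comparisons on 7 with 4 group means. Text names the members, Ltf, up to 4 genes per list by size of difference, Klk1, the tested genes of the region and the 10 nearest profiles; 1 gene of the lists is not reported here. Members and lists were chosen with earlier results of these data known. Python 3.11.15 with pandas 2.3.3 and matplotlib 3.10.9 was used. Alternatives were scalings, filters, a pseudocount of 0.1, blocks and each library left out; non-overlap settings were added after seeing the data.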

Additional observations from a re-analysis of the deposited data

How the results depend on the processing

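The members' log2 differences kept their direction and their side of the threshold in 149 of 149 values in pro-B, 140 of 149 over both stages (the other 9 passed, all without Lf-/- pre-pro-B replicate 1), 118 of 129 in pre-pro-B, 144 of 149 for the interaction and 133 of 149 for stage. Genes that passed in pre-pro-B numbered 65 with the replicate block. The r of deviations across genes between same-numbered replicates was 0.0393 between genotypes in pre-pro-B and -0.0127 between Lf-/- stages. Both values use the Lf-/- pre-pro-B pair, whose replicate 2 stood apart, so they cannot decide whether the numbers mark pairs. The labels do not say that a number marks a shared litter or day, so the numbers were not read as pairs. At an unadjusted p under 0.05 the block took the genes in pre-pro-B from 284 to 532 and the positive ones of the interaction from 273 to 430. It changed no other count of genes passing, and neither did the mouse label as a random block. With no filter 256 genes passed in pro-B, 150 over both stages, 122 for the interaction and 124 for stage, with 27443 genes tested and 0 members among them. Over both stages 0 passed with a pseudocount of 0.1 and 12 with 1 FPKM in every library. Non-overlap held for 546 genes (5.06% of those tested) with median-ratio scaling and 585 (5.42%) with quantile normalization. With 1 library left out it held for 1089 to 2322 genes, or 10.5% to 21.9% of those tested (9 to 10 members). With 1 library left out, genes passing ranged from 0 to 3338 in pre-pro-B (0 to 8 members), 0 to 1 in pro-B, 0 to 2504 over both stages (0 to 9 members), 0 to 561 for the interaction (0 to 1) and 0 to 347 for stage (0 to 1); leaving out the WT pro-B library gave no value for the last 4. The highest counts came without Lf-/- pre-pro-B replicate 1; the median log2 difference between replicates was 0.875 in that pair, 0.263 for WT pre-pro-B and 0.317 for Lf-/- pro-B.

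Signs changed as follows, the cause not being tested. H2-Ob in pre-pro-B was at -0.0209 with the same sum without neutrophil genes, -0.19 with a pseudocount of 0.1, and -1.30 to 1.42 with 1 library left out. For the interaction H2-DMa was at -0.0336 and H2-DMb2 at -0.00687 with median-ratio scaling, H2-DMa at -0.0601 with quantile normalization and at -0.62 to 1.47 with 1 library left out. For stage Cd74 was at 0.0723 with median-ratio scaling and 0.14 with the same sum without neutrophil genes, and H2-Eb1 at 0.0928 with quantile normalization and 0.0171 with that same sum. Left-out ranges for stage were Cd74 -0.23 to 0.0578, H2-Aa -0.10 to 0.18, H2-Ab1 -0.11 to 0.15, H2-DMa -0.79 to 0.26 and Ciita -0.21 to 0.37. Of 1072 values for other named genes 16, all of Ltf, Gm13841 and Gm8210, no longer passed, 43 came to pass (Cd79a, Cd79b, Fcmr and Ms4a1 with 1 FPKM in every library, the rest without Lf-/- pre-pro-B replicate 1) and 12 changed sign. Nfyc was at -0.0409 with median-ratio scaling and -0.071 with quantile normalization, Cd86 at -0.00377 and -0.23 with median-ratio scaling and a pseudocount of 0.1, and Xbp1 at -0.0000190 and Jchain at -0.0261 with median-ratio scaling. Tap2 was at 0.25 with the replicate block. Their left-out ranges, where they changed sign, were Cd86 -0.20 to 0.56, Cd3d -0.12 to 1.64, Jchain -0.13 to 0.90 and Tap2 -1.01 to 0.67.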
